A study of Mus musculus with 12 samples.

Results

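The 4 genes described here are Prl2c2 and Prl2c3, a pair of near-identical genes for the secreted hormone proliferin, Sprr1a, a small proline-rich protein gene, and Serpinb2, a serine protease inhibitor gene. They were chosen by measured values, as growth-medium genes with large falls in differentiation medium across the 4 groups of the study, so their differences between media are the values that chose them and are given as a description, without a test. All 4 were found among the 55416 genes of the count table, and all 4 were among the 13250 genes with enough counts to be tested. The 12 RNA-seq libraries came from C2C12, an established line of mouse skeletal myoblasts, and carry 1 batch label. The groups, with 3 biological replicates each, were cells labelled as Mapk14 knockout in differentiation medium (KO DM), wild-type cells in differentiation medium (WT DM), cells labelled as Mapk14 knockout in growth medium (KO GM) and wild-type cells in growth medium (WT GM). Differentiation medium (DM) held 2% horse serum and growth medium (GM) held 10% fetal bovine serum, and the cells were in DM for 5 days after a start in GM. Day 5 is also listed for the GM libraries. The editing method and the number of knockout clones are not stated, and nothing says that the replicates came from separate thaws or clones, so p-values measure the spread between these cultures.

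Proliferin belongs to the prolactin and growth hormone family and is made in quantity by trophoblast giant cells of the mouse placenta, where it acts on blood vessel growth. In cultured mouse fibroblasts it is known as a protein induced by serum and growth factors, and in myoblast cultures it has been described as an inhibitor of muscle differentiation. Sprr1a is best known as a building block of the cornified envelope of keratinocytes, where transglutaminases cross-link it, and as a gene induced in injured neurons and stressed heart muscle cells. Serpinb2, or plasminogen activator inhibitor type 2, inhibits urokinase and tissue plasminogen activator and is known as an inducible gene of macrophages and keratinocytes. AP-1, the family of Fos and Jun transcription factors that binds a short DNA motif, is a known regulator of genes of all 3 kinds.

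The likeness of the proliferin pair bears on every Prl2c2 and Prl2c3 value below. The coding sequences of the pair in the reference annotation (GENCODE M21, GRCm38) were 99.6% identical, with 3 mismatched bases in 672 and no gap. The 150 coding bases in which the pair differed most, bases 170 to 319 counted from the start codon, are shown to make clear how little a read can hold to part them. Capitals mark the 2 positions that differ.
Prl2c2: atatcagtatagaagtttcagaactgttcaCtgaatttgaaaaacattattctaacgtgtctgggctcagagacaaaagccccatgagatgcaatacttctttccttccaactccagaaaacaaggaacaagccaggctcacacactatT
Prl2c3: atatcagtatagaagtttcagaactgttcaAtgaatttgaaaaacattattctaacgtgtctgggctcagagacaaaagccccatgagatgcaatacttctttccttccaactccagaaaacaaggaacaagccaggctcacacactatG
Sequencing was paired-end with reads of 150 bases. Of the 693 windows of that length in the Prl2c2 transcript, 50.9% occurred unchanged in a Prl2c3 transcript, and of the 708 in the Prl2c3 transcript 49.9% occurred unchanged in Prl2c2. No 150-base window of Sprr1a or of Serpinb2 occurred in any other gene of its family. The split of counts between Prl2c2 and Prl2c3 thus depends on how the authors assigned shared reads, which the counts do not show, while their sum depends on it less. The third close relative, Prl2c5, was 93% identical to Prl2c2 in its coding sequence and shared no 150-base window with the pair.

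The upstream sequences are shown because the members fell together in DM and because AP-1 is a known regulator of such genes. The RefSeq promoter table (GRCm38.p6) had an entry for Prl2c3, Sprr1a and Serpinb2 among the members, not for Prl2c2, and for Prl2c5; of the starts listed for Serpinb2 the first is used. The 250 bases before the annotated start are printed 5′ to 3′ on the strand of the gene, with matches to the AP-1 motif TGANTCA on either strand in capitals.
Prl2c3, chr13:12800080-12800329, minus strand: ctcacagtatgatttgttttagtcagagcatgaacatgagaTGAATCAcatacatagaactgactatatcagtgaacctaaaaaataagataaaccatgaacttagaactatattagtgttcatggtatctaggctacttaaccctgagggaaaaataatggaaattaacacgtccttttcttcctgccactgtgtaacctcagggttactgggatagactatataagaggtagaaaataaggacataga
Prl2c5, chr13:13182466-13182715, plus strand: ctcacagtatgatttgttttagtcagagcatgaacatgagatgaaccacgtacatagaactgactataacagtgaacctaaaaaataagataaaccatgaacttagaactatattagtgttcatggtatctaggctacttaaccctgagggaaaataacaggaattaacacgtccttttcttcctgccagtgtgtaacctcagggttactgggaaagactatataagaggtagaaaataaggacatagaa
Sprr1a, chr3:92485882-92486131, minus strand: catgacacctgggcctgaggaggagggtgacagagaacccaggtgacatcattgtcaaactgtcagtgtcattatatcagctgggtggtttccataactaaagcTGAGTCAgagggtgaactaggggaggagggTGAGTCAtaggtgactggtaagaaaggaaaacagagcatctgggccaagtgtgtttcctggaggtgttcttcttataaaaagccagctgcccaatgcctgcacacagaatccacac
Serpinb2, chr1:107511173-107511422, plus strand: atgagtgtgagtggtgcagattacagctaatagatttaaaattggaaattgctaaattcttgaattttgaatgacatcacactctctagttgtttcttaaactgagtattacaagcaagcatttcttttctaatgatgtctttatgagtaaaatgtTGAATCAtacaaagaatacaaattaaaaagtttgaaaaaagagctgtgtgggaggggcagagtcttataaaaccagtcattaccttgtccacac
The motif occurred in all 3 member windows, with 2 matches in Sprr1a, 139 and 109 bases before the start, 1 in Serpinb2 at 87 bases and 1 in Prl2c3 at 202 bases. It was in 6.75% of the 32851 promoter windows of the same length in the table. The Prl2c5 window, otherwise close to that of Prl2c3, held no match. Of the other motifs searched on both strands, TATAAA was in the Sprr1a and Serpinb2 windows and in 12.4% of all windows, CANNTG was in the Sprr1a window, 6 times, and in 66.2% of all windows, and neither TGACGTCA (1.55% of all windows) nor GGAATG (12.6%) was in any member window. No match overlapped another. A match describes letters in the reference strain and is not a measured binding site.

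Library totals were 8821669 to 11536396 counts, and a gene with 3 counts had 0.260 to 0.346 CPM (counts scaled to a common library size with edgeR's TMM factors). Mapk14 RNA, the target named in the label, was not lower in the KO-labelled libraries, at 84.5 to 93.8 CPM in KO DM and 88.7 to 93.9 CPM in WT DM, and at 130 to 137 CPM in KO GM and 108 to 135 CPM in WT GM, so KO stands for the label throughout. The myoblast and myocyte markers Myod1, Myf5, Myog, Des, Cdh15 and Chrna1 were present in every group, with a summed level of 1370 to 1560 CPM in KO DM and 3730 to 3810 in WT DM, and of 472 to 581 in KO GM and 1640 to 1870 in WT GM, and their part in the genotype differences below was not tested. Mki67, a marker gene of dividing cells, was higher in DM than in GM, for reasons not tested. It was at 92.5 to 104 CPM in KO DM and 77.8 to 98.2 in WT DM, and at 35.8 to 39.5 in KO GM and 17.5 to 36.4 in WT GM. In both GM groups replicate 3 had the highest level of the myogenic factor gene Myog. It was at 45.9 CPM against 31.4 and 16.8 in KO GM, and at 220 CPM against 127 and 143 in WT GM. For Mki67 replicate 3 was at 36.4 CPM against 17.5 and 18.6 in WT GM, and lay between the other libraries in KO GM.

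Prl2c2 RNA was abundant in GM and scarce in DM. It was at 4.66, 4.20 and 2.23 CPM in the KO DM libraries, 16.1, 20.8 and 9.98 CPM in the WT DM libraries, 284, 238 and 145 CPM in the KO GM libraries and 292, 224 and 146 CPM in the WT GM libraries. The GM groups overlapped throughout, whereas every KO DM library lay below every WT DM library. Prl2c3 was at 4.86, 5.88 and 2.97 CPM in KO DM and 48.5, 47.2 and 25.9 CPM in WT DM. In GM it was at 287, 218 and 132 CPM in the KO libraries and 405, 327 and 234 CPM in the WT libraries, and the groups overlapped. Per kilobase of transcript, Prl2c3 in WT GM had the highest mean level of the members, 376 ± 99.4 CPM (SD, n = 3).

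Sprr1a had the widest gap between genotypes. Its level was 0.203, 0.280 and 0.0929 CPM in KO DM, from 2, 3 and 1 counts, against 8.99, 10.2 and 9.58 CPM in WT DM. In GM the libraries held 15.0, 17.4 and 12.7 CPM in KO and 24.0, 22.7 and 12 CPM in WT. The KO DM libraries were at or under the floor of 3 counts that a count of 0 allows, while the 3 WT DM libraries lay below the lowest GM library. Per kilobase, Sprr1a was highest in WT GM, at 24.2 ± 8.16 CPM. Prl2c2 and Prl2c3 stood there at 262 ± 86.4 and 376 ± 99.4 CPM.

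Serpinb2 was at 1.11, 1.21 and 1.76 CPM in KO DM and 4.26, 5.72 and 4.29 CPM in WT DM. In GM it was at 56.8, 48.5 and 32.1 CPM in KO and 27.4, 25.3 and 19.1 CPM in WT. No group overlapped another, and the genotypes took opposite order in the media, KO being lowest of all in DM and highest of all in GM. Its level per kilobase was 23.0 ± 6.30 CPM in KO GM and 12 ± 2.16 CPM in WT GM.

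**Figure D1:**
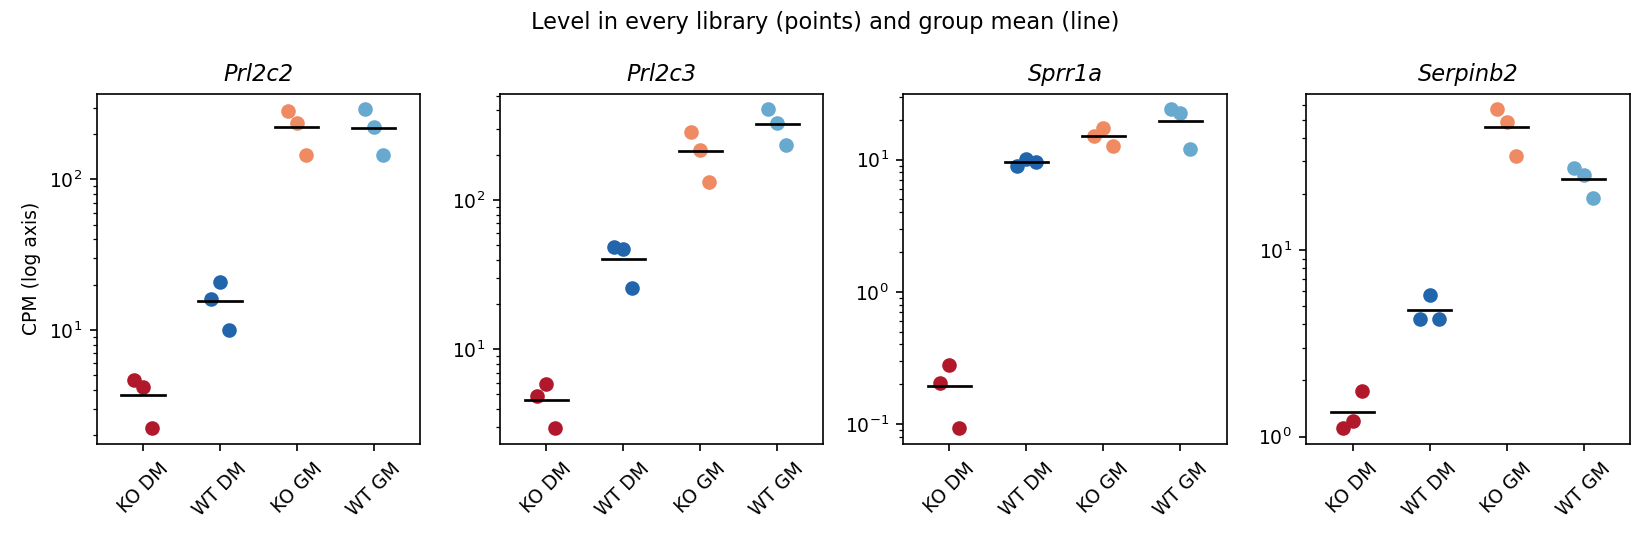
CPM on a log axis for each member in the KO DM, WT DM, KO GM and WT GM libraries, 1 point per library and a line at the group mean. KO DM is the lowest group in all 4 panels, and for Sprr1a the WT DM points, 8.99 to 10.2 CPM, sit close to the GM points.

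The order of the group means was KO GM, WT GM, WT DM and KO DM from high to low for Prl2c2 and Serpinb2, and WT GM, KO GM, WT DM and KO DM for Prl2c3 and Sprr1a. Only the GM groups were neighbours that overlapped, and they did so for Prl2c2, Prl2c3 and Sprr1a but not for Serpinb2. In bulk RNA, fewer cells making a transcript and less of it in each cell cannot be told apart.

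The differences between media were of unequal size in the genotypes. From the fit to all 12 libraries, the log2 change in KO DM against KO GM was -5.91 ± 0.49 for Prl2c2, -5.53 ± 0.48 for Prl2c3, -6.21 ± 0.39 for Sprr1a and -5.05 ± 0.26 for Serpinb2 (± SE). In KO these were ranks 11, 12, 9 and 16 among decreases over the 13250 genes. In WT DM against WT GM the log2 change was -3.82 ± 0.41 for Prl2c2, -2.99 ± 0.38 for Prl2c3, -2.32 ± 0.23 for Serpinb2 and -1.02 ± 0.21 for Sprr1a. Sprr1a, which ranked 9 in KO, ranked 392 in WT, whereas Prl2c2 ranked 11 in KO and 13 in WT. All 4 members were lower in DM in both genotypes, as follows from their choice by large falls. Of all genes tested, 19.8% were called lower and 40.6% in either direction in KO, and 14.8 and 33.2% in WT. The response in KO minus that in WT was -5.19 ± 0.50 for Sprr1a, -2.73 ± 0.39 for Serpinb2, -2.54 ± 0.62 for Prl2c3 and -2.09 ± 0.67 for Prl2c2, again as a description, where 5.25% of genes were called lower, 3.61% higher and 8.86% in either direction.

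Genotypes were then compared within each medium, a contrast by which the members were not chosen but which shares its libraries with those that chose them. A choice by large falls in DM favours genes with low KO DM levels and genes with high KO GM levels. The members' p-values in both media, and their numbers called lower in DM and higher in GM, are therefore not independent of the choice. In DM all 4 members were lower in KO than in WT, where 17.4% of the genes tested were called lower and 31.0% in either direction. Sprr1a fell by 5.56 ± 0.42 on the log2 scale (edgeR quasi-likelihood test, adjusted p = 2.34e-09, 3 of 3 libraries below all WT). Over the summed counts, 6 in KO DM and 274 in WT DM, it was 50.2-fold lower, with a counting interval (95%, exact) of 22.8 to 138. Prl2c3 fell by 3.14 ± 0.51 (adjusted p = 0.0017) and Serpinb2 by 1.79 ± 0.34 (adjusted p = 7.25e-04). Prl2c2 fell by 2.08 ± 0.58 (adjusted p = 0.026), a call that was lost when WT DM replicate 1 or 2, or any 1 of the KO DM libraries, was left out (adjusted p from 0.0555 to 0.0875, and from 3.27e-09 to 0.0875 across all alternatives). With all Prl2c genes summed, which removes the split between paralogs, the change was -2.75 and was called.

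In GM 1 of the 4 members was called higher in KO and the other 3 did not pass, by edgeR, DESeq2 and limma-voom alike, where by edgeR 10.0% of genes were called higher, 10.6% lower and 20.7% in either direction. Serpinb2 rose by 0.94 ± 0.18 (adjusted p = 0.0012), a 1.91-fold higher level, in the opposite direction to its difference in DM. Its high KO GM level is also part of the fall by which it was chosen. By edgeR the unadjusted p of the others was 0.976 for Prl2c2, 0.111 for Prl2c3 and 0.0744 for Sprr1a. Their intervals (95%) were -0.75 to 0.78 for Prl2c2, -1.38 to 0.17 for Prl2c3 and -0.79 to 0.04 for Sprr1a. Sprr1a was called lower in KO GM without WT GM replicate 3 (-0.64, adjusted p = 0.00457) and without both GM replicate 3 libraries (-0.53, adjusted p = 0.0215). With the replicate number as a block in the edgeR fit, Prl2c3 was called lower in KO GM (adjusted p = 6.06e-06). The numbers were not shown to pair the samples.

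**Figure D2:**
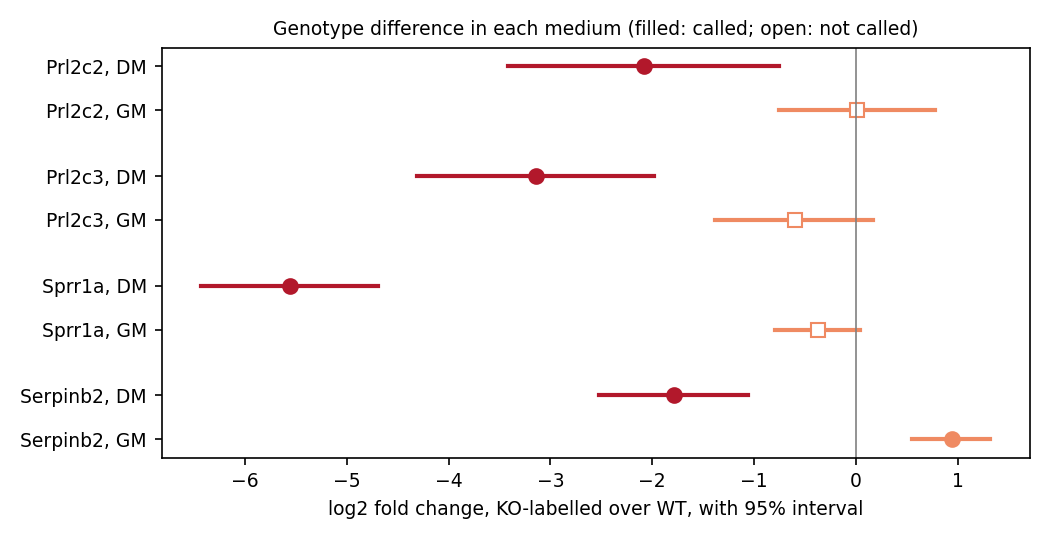
Log2 fold change of KO-labelled over WT cells for each member in DM (dark) and GM (light), with 95% intervals from the edgeR fit; filled points were called and open points were not. All 4 DM points lie left of 0, and in GM the Serpinb2 point, 0.94, lies right of it.

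The proliferin pair did not keep a constant proportion. Prl2c3 made up 51.1, 58.3 and 57.1% of the Prl2c2 and Prl2c3 counts in the KO DM libraries and 75.0, 69.4 and 72.2% in the WT DM libraries. In GM the share was 50.3, 47.8 and 47.7% in KO and 58.1, 59.3 and 61.6% in WT. Each KO library lay below every WT library of its medium. The exact binomial intervals (95%) reached from 40.5 to 70.3% in KO DM, where only 56 to 108 counts of the pair were left in a library, and from 46.0 to 51.6% in KO GM. The log2 ratio of Prl2c3 to Prl2c2 (with 0.5 added to each count) was 0.32 ± 0.22 in KO DM and 1.38 ± 0.20 in WT DM, and -0.08 ± 0.08 in KO GM and 0.57 ± 0.11 in WT GM (SD, n = 3). The mean difference between genotypes within media was -0.86 (exact permutation test within media, 2-sided, p = 0.005, the smallest that its 400 arrangements can give). The ratio was examined after its values had been seen, and it rests on the authors' assignment of reads shared by the pair.

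**Figure D3:**
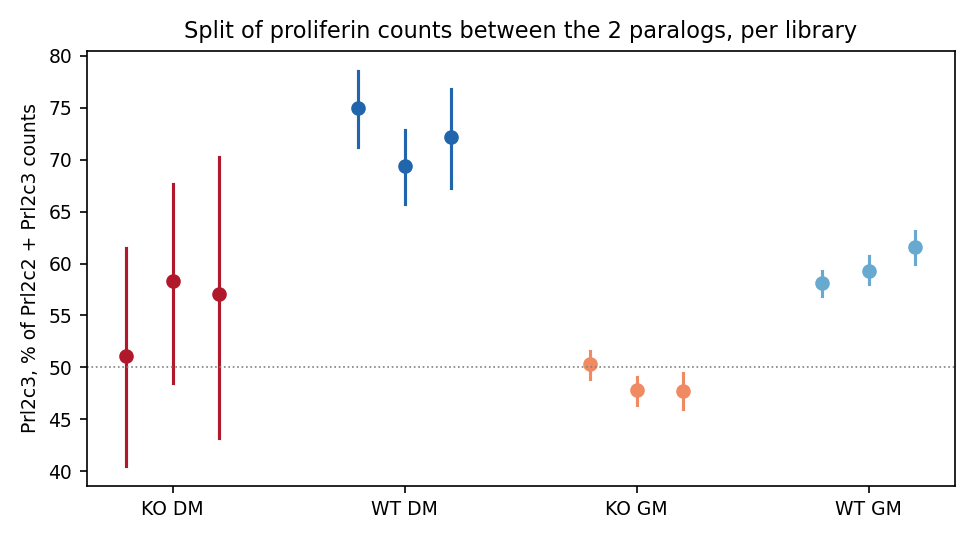
Share of Prl2c3 in the counts of Prl2c2 and Prl2c3 together, in percent, for each library, with exact binomial intervals (95%, counting error only). WT DM libraries sit between 69.4 and 75.0%, and KO GM libraries lie around the dotted line at 50%.

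Together the Prl2c genes took 5.20 to 10.1 CPM in KO DM and 36.4 to 68.2 CPM in WT DM, and 277 to 572 CPM in KO GM and 381 to 697 CPM in WT GM. Almost all of it came from the pair. Prl2c5 had 1 count in KO DM and 10 in WT DM, and 9 in KO GM and 21 in WT GM, over 3 libraries each, and was not tested. Prl2c1 had 0 counts in all 12 libraries. Of the 26 genes of the prolactin family in the table, 21 had no count in any library, among them Prl itself and the placental lactogen genes Prl3d1 and Prl3b1. Besides the Prl2c genes, Prl7a1 and Prl7b1 had 1 count each.

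Among receptors and relays for this hormone family, the cation-independent mannose-6-phosphate receptor gene Igf2r, which is known to bind proliferin, was lower in KO than in WT in both media. It fell by 0.68 ± 0.09 in DM, to 41.5 ± 2.38 CPM in KO against 66.4 ± 1.86 CPM in WT (adjusted p = 7.71e-06), and by 0.70 ± 0.10 in GM (adjusted p = 1.07e-05). The prolactin receptor gene Prlr had 2 counts in all and was not tested. In the list of 10 tested receptor and signalling genes, 3 rose and 2 fell in KO DM against WT DM (median 0.20, against -0.02 over all genes tested), where 13.6% of all genes were called higher and 17.4% lower. In KO GM against WT GM 2 rose and 2 fell (median 0.10, against 0), where 10.0% of all genes were called higher and 10.6% lower. The kinase gene Jak2 rose in both media (0.79 ± 0.09 in DM and 0.59 ± 0.09 in GM) and the signal suppressor gene Socs2, named after its values were seen, fell in both (-0.75 ± 0.10 in DM and -1.27 ± 0.10 in GM).

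The tested relatives of Sprr1a also fell in DM. Of 16 small proline-rich genes 5 had no count, and besides Sprr1a only Sprr2h and Sprr2g, both relatives with the same kind of proline-rich repeat, were tested. With means of 0.858 and 0 CPM in KO DM, these had enough counts to be tested through groups where they were higher, which favours a fall. Relatives with too few counts went both ways in WT. Sprr2e had 7 counts in WT DM and 17 in WT GM, and Sprr2k had 12 in WT DM and 0 in WT GM. Sprr2h was at 0.709, 1.49 and 0.372 CPM in KO DM, 4.26, 3.47 and 1.90 CPM in WT DM, 44.0, 51.3 and 22.5 CPM in KO GM and 33.3, 24.5 and 12.6 CPM in WT GM. It fell in DM in both genotypes, with log2 changes of -5.49 ± 0.64 in KO (adjusted p = 1.46e-04) and -2.88 ± 0.54 in WT (adjusted p = 0.00343), where 18.4% of all genes were called higher and 14.8% lower in WT. Between genotypes it did not pass, at -1.87 ± 0.90 in DM (adjusted p = 0.161) and 0.74 ± 0.41 in GM (adjusted p = 0.257). Sprr2g, which RefSeq lists as a transcribed pseudogene, had 0 counts in all 3 KO DM libraries against 0.613 to 1.38 CPM in WT DM, at least 9.53-fold lower with 3 counts over the group as the floor (adjusted p = 1.59e-04). Against its 2.58 to 3.90 CPM in KO GM it was at least 33.2-fold lower in KO DM. In WT its log2 change in DM was -1.5 ± 0.41.

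On chromosome 3 Sprr1a lies in the epidermal differentiation cluster, a long run of cornified envelope genes. Of 58 protein-coding RefSeq genes from S100a11 to S100a9, 54 were in the table, 34 of them with no count in any library, and 5 were tested. Besides Sprr1a these were Sprr2h, Prr9, a proline-rich protein gene, Lce1g, a late cornified envelope gene, and S100a11, a widely made calcium-binding protein gene, a block looked up after the values were seen. Of these 4, 3 fell in KO DM against KO GM and all 4 in WT DM against WT GM, where 19.8% of all genes were called lower in KO and 14.8% in WT. The 3 that fell in KO were at 0.158 to 0.858 CPM in KO DM. They had enough counts to be tested through groups where they were higher, which favours a fall. Prr9 was at 0.158 CPM in KO DM and 6.97 in WT DM, and at 3.19 in KO GM and 13 in WT GM (group means), a log2 change of -5.34 between genotypes in DM (adjusted p = 5.05e-10) and of -2.02 in GM (adjusted p = 4.60e-07). Lce1g fell by 2.48 in KO DM against WT DM (adjusted p = 0.00397) and was at -0.60 in GM (adjusted p = 0.202). S100a11 was at 507 CPM in KO DM and 534 in WT DM. Its change from GM to DM was small, -0.19 in WT (adjusted p = 0.0453) and -0.12 in KO (adjusted p = 0.195).

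Of 8 tested cornified envelope and desmosome genes 2 rose and 2 fell in KO DM against KO GM (median -0.12, against 0 over all genes), and 1 rose and 4 fell in WT DM against WT GM (median -0.16, against -0.01). For these contrasts, of all genes 20.8% were called higher and 19.8% lower in KO, and 18.4% higher and 14.8% lower in WT. The desmosomal gene Jup, which encodes plakoglobin, rose in DM by 1.82 ± 0.10 in KO and by 1.87 ± 0.09 in WT, and Pkp1, another desmosomal gene, fell by 1.43 ± 0.10 in KO and by 0.38 ± 0.09 in WT.

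For the gp130 receptor family of cytokines, known inducers of Sprr1a in heart muscle cells, 13 genes were tested. In KO DM against KO GM 4 rose and 5 fell (median 0.19, against 0 over all genes), where 20.8% of all genes were called higher and 19.8% lower. In WT DM against WT GM 1 rose and 6 fell (median -0.25, against -0.01), where 18.4% were called higher and 14.8% lower. The ligand genes Il6, Il11 and Clcf1, named after their values were seen, fell in DM in both genotypes. The log2 change of Il6 was -1.63 ± 0.39 in KO and -3.35 ± 0.48 in WT, that of Il11 -2.53 ± 0.37 in KO and -2.01 ± 0.34 in WT, and that of Clcf1 -1.19 ± 0.10 in KO and -1.06 ± 0.10 in WT. In KO DM against WT DM, where Sprr1a was far lower, 8 of them rose and 5 did not pass by edgeR (of all genes 13.6% were called higher and 17.4% lower), the median being 0.39 against -0.02 over all genes. The shared receptor subunit gene Il6st rose by 0.33 ± 0.08, the oncostatin M receptor gene Osmr by 0.76 ± 0.14, the transcription factor gene Stat3 by 0.45 ± 0.10 and the feedback inhibitor gene Socs3 by 0.39 ± 0.10. In GM 1 of the 13, the ligand gene Lif, named after its value was seen, rose in KO against WT (0.82 ± 0.16), and 12 did not pass, where 10.0% of all genes were called higher and 10.6% lower.

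Of 27 clade B serpins, the intracellular family of Serpinb2, 9 had no count and 9 besides Serpinb2 were tested. In KO DM against KO GM 5 rose and 2 fell (median 0.89, against 0 over all genes), and in WT DM against WT GM 4 rose and 1 fell (median 0.34, against -0.01). Here of all genes 20.8% were called higher and 19.8% lower in KO, and 18.4% higher and 14.8% lower in WT. Serpinb1a, an inhibitor of neutrophil proteases, rose by 1.79 ± 0.16 in KO and 0.96 ± 0.16 in WT, and Serpinb9, the granzyme B inhibitor, rose by 0.89 ± 0.11 in KO and 0.44 ± 0.11 in WT. Serpinb1b was the 1 that fell in WT (-2.13 ± 0.24) and was at -0.46 ± 0.24 in KO (adjusted p = 0.126). Serpinb9b fell in KO against WT in both media, with log2 changes of -3.22 ± 0.24 in DM and -2.00 ± 0.21 in GM. In GM, where Serpinb2 was higher in KO, 4 of the 9 others fell and 5 did not pass by edgeR, where 10.6% of all genes were called lower. The difference in direction between Serpinb2 and its clade was not tested.

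In the plasminogen system, on which Serpinb2 acts, the activator gene Plat rose in DM in both genotypes (0.45 ± 0.10 in KO and 0.50 ± 0.10 in WT). Of the 9 tested genes other than Serpinb2, 3 rose and 4 fell in KO DM against KO GM, and 2 rose and 4 fell in WT DM against WT GM (median -0.20 against 0 over all genes in KO, and -0.26 against -0.01 in WT), while of all genes 20.8% were called higher and 19.8% lower in KO, and 18.4% higher and 14.8% lower in WT. The urokinase receptor gene Plaur, named after its values were seen, was at 26.7 ± 3.57 CPM in KO DM and 34.1 ± 2.03 in WT DM, and at 124 ± 12.2 in KO GM and 107 ± 12.1 in WT GM. Its ligand, the urokinase gene Plau, also named after the fact, fell in KO against WT by 1.48 ± 0.09 in DM and 0.80 ± 0.09 in GM.

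The AP-1 motif stood in the 3 member promoters that could be searched, Prl2c2 having none listed. The AP-1 list was wider than the Fos and Jun genes and also held Atf3, Jdp2 and the Maf genes Maff, Mafg and Mafk. Of its 12 tested genes, 4 rose and 4 fell in KO DM against KO GM, and 2 rose and 3 fell in WT DM against WT GM. Among these calls, Maff fell and Jdp2 rose in both genotypes, and Atf3 fell in KO. The medians were -0.17 against 0 over all genes in KO, and -0.12 against -0.01 in WT. Over these contrasts, of all genes 20.8% were called higher and 19.8% lower in KO, and 18.4% higher and 14.8% lower in WT. Fosl1, the gene for Fra-1, was at 48.7 ± 5.25 CPM in KO DM and 58.0 ± 4.68 in WT DM, and at 191 ± 16.2 in KO GM and 164 ± 30.0 in WT GM. It fell in DM, by log2 changes of -1.97 ± 0.12 in KO (adjusted p = 1.77e-09) and -1.5 ± 0.12 in WT (adjusted p = 5.21e-08). Between genotypes Fosl1 was at -0.25 ± 0.12 in DM (adjusted p = 0.143) and 0.22 ± 0.11 in GM (adjusted p = 0.201). Jund rose in DM in both genotypes (0.40 ± 0.08 in KO and 0.22 ± 0.08 in WT), while Jun fell in KO (-0.24 ± 0.08) and was at -0.07 ± 0.08 in WT (adjusted p = 0.504).

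**Figure D4:**
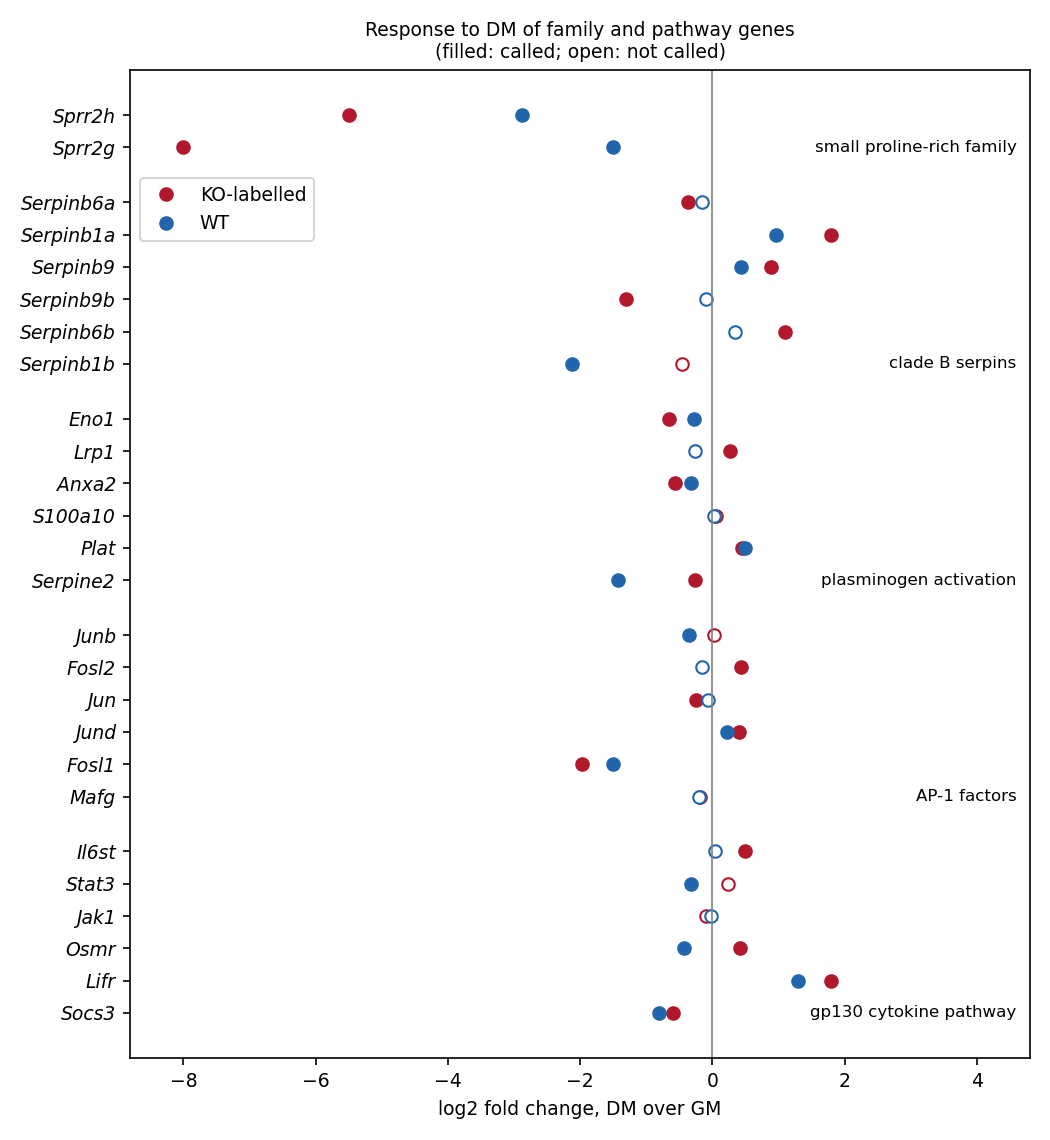
Log2 fold change of DM over GM in KO-labelled cells (red) and WT cells (blue) for up to 6 of the most abundant tested genes of 5 lists, members left out; filled points were called and open points were not. The small proline-rich genes Sprr2h and Sprr2g lie far to the left in KO, and at -2.88 and -1.5 in WT. Most clade B serpins and genes of the AP-1 list lie within 2 of 0. The KO value of Sprr2g comes from 0 counts in DM and depends on the prior count.

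The cell types for which these genes are markers were looked for. Of 8 trophoblast markers 7 had no count in any library (Prl3d1, Prl3b1, Gcm1, Tpbpa, Hand1, Cdx2 and Elf5), and their summed level was 0 to 0.187 CPM in KO DM and 0 in the other groups. Of 9 keratinocyte and epithelial markers Krt1, Epcam and Krt18 were at 0, and the sum was 18.1 to 19.7 CPM in KO DM, 12.7 to 14.7 in WT DM, 6.07 to 7.80 in KO GM and 3.55 to 4.59 in WT GM, higher in DM than in GM. In each group 6 or 7 of the 9 were at or under 1 CPM. The largest part of the sum was Krt14 in KO DM, at 13.8 CPM, and Trp63 in WT DM, at 7.24 CPM (group means). Of 8 macrophage markers Ptprc and Adgre1 were at 0, and the sum was 32.5 to 40.3 CPM in KO DM, 19.4 to 22.5 in WT DM, 40.7 to 47.0 in KO GM and 34.3 to 47.8 in WT GM. The part of such cells in the members' levels was not tested.

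In GM replicate 3 was the lowest library of its group for all 4 members in both genotypes. Prl2c2 there stood at 65.1% of the group mean in KO GM and 66.3% in WT GM, Prl2c3 at 62.3% in KO GM and 72.8% in WT GM, Serpinb2 at 70.1% in KO GM and 79.8% in WT GM, and Sprr1a at 84.3% in KO GM and 61.3% in WT GM. In the same libraries Myog stood at 146% in KO GM and 134% in WT GM, and the skeletal actin gene Acta1 at 161% in KO GM and 142% in WT GM. Genes beside the members were lowest there too, Sprr2h at 57.3% in KO GM and 53.6% in WT GM, and Fosl1 at 91.6% in KO GM and 80.9% in WT GM. The low replicate 3 was not particular to GM. For Prl2c2 it was also the lowest DM library, at 60.3% of the group mean in KO DM and 63.8% in WT DM, and for Prl2c3 likewise, at 65.0% in KO DM and 64.0% in WT DM. In those DM libraries Myog stood at 96.0% in KO DM and 96.7% in WT DM, and Acta1 at 93.9% in KO DM and 99.2% in WT DM. Sprr1a in replicate 3 was at 48.4% in KO DM, from 1 count, and 99.9% in WT DM. Serpinb2 in replicate 3 was the highest library in KO DM, at 129%, and at 90.2% in WT DM. Whether the muscle transcripts bear on the members' levels was not tested. Without both GM replicate 3 libraries Serpinb2 remained called in both media, Prl2c2, Prl2c3 and Sprr1a remained called in DM, and Sprr1a was called in GM as well.

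**Figure D5:**
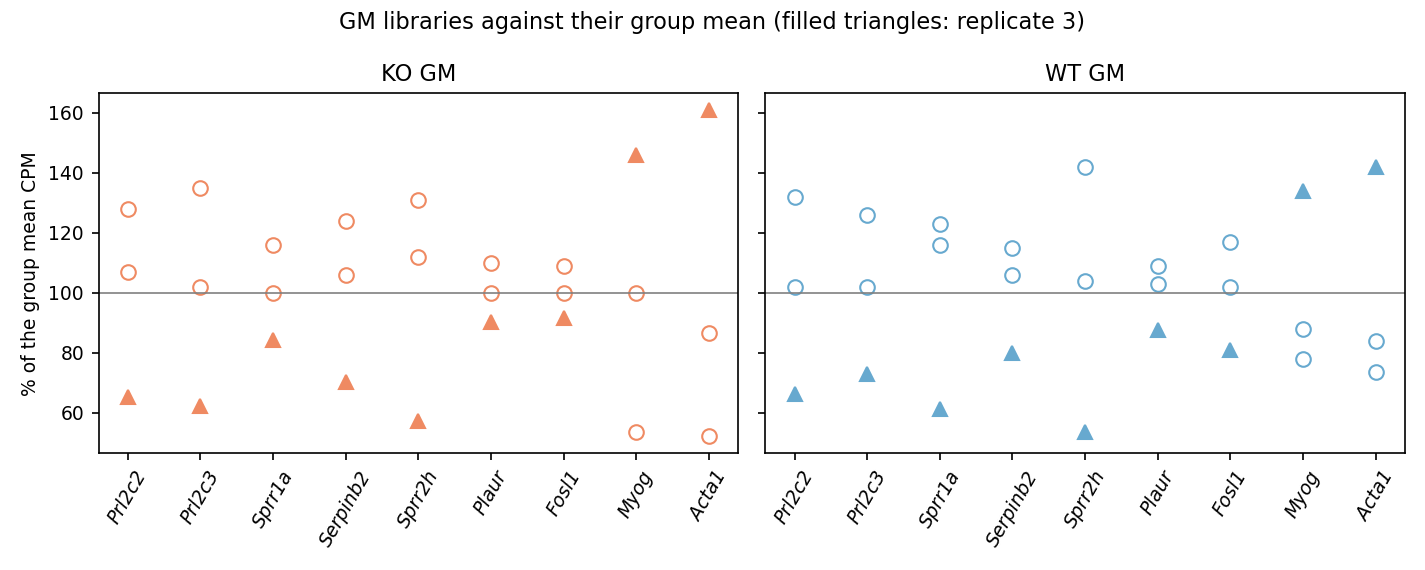
Level of each GM library in percent of its group mean, for the 4 members, 3 genes named beside them and the muscle genes Myog and Acta1, in KO GM (left) and WT GM (right); filled triangles mark replicate 3. The triangles are the lowest points for the 4 members (61.3 to 84.3%) and also for Sprr2h (57.3% in KO GM and 53.6% in WT GM), Plaur and Fosl1, and the highest points for Myog and Acta1 (134 to 161%).

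The genes most like each member over the 12 libraries were taken from 9809 named genes with at least 10 CPM in a group, by the root mean square difference of log2 CPM after centring each gene on its own mean. For Prl2c2 the closest were Sprr2h (0.57), the pleckstrin gene Plek (0.62), Cyp1a1 (0.65), U90926 (0.92) and Rgs16 (0.95), where the median over all genes was 2.56. For Prl2c3 they were Plek (0.67), Lce1g (0.71), Acsbg1 (0.72), Sprr2h (0.73) and Hmga1 (0.95). For Serpinb2 they were Hmga2 (0.53), Sprr2h (0.58), the growth factor gene Areg (0.58), Hmga1 (0.59) and Rgs16 (0.60), against a median of 1.93. Sprr1a had no gene as close, and its nearest were Prr9 (0.82), Lce1g (0.86), Acsbg1 (0.91), the placental growth factor gene Pgf (0.94) and Lgr6 (0.97). Between the members themselves the difference was 0.55 for Prl2c2 and Prl2c3, 0.82 for Prl2c2 and Serpinb2, 0.85 for Prl2c3 and Sprr1a, 0.89 for Prl2c3 and Serpinb2, 1.21 for Sprr1a and Serpinb2 and 1.3 for Prl2c2 and Sprr1a. Hmga2, an architectural chromatin protein gene, was at 18.7 CPM in KO DM and 51.4 in WT DM, and at 232 in KO GM and 183 in WT GM (group means), the same order of groups as Serpinb2.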

How the data were processed

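The deposited values were raw counts, whole numbers for each Ensembl gene, in a single table. The submitters' processing notes list GRCm39 as build and DESeq2 1.40.2, R 4.3.1, RSEM 1.3.3 and STAR 2.7.1a as tools, without saying which one counted, with what annotation or strand. A supplied name table matched 52083 genes to symbols, and 4 empty columns were not used. The analysis used edgeR 4.0.16 (R 4.3.3): filterByExpr kept 13250 genes (99.9% of counts), TMM scaling, and 1 robust quasi-likelihood fit with a mean for each of the 4 groups. P-values were adjusted across the 13250 genes (Benjamini-Hochberg), a gene was called below 0.05, and rose and fell are used of called genes. The ± of a log2 change is its SE, and that of a CPM value the SD of 3 libraries. The exact counting and binomial intervals and the floor of 3 counts cover counting error only. Intervals of log2 changes come from the edgeR fit and also take in the spread between replicates. The fit was tested on simulated counts. The members, the 12 gene lists, the contrasts and the motifs were chosen with earlier results of these data known; list genes named are up to 6 per list by mean CPM, with exceptions stated, and 1 gene of the plasminogen list is not reported here. Alternatives were 3 other scalings, DESeq2 1.42.0, limma-voom (limma 3.58.1), no filter, a stricter filter (1 CPM and 10 counts in 3 libraries), no robust estimation, 2-group fits, the replicate number as a block, summed Prl2c genes, each library left out, and, added after seeing the data, both GM replicate 3 libraries left out. Same-numbered libraries of different groups had deviations correlated at -0.09 to 0.19, so the numbers were not taken to pair them. Counts of replicates differed by more than sampling noise in every pair.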

Additional observations from a re-analysis of the deposited data

Results flagged for a closer look

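Serpinb2 was higher in every KO GM library than in any WT GM library and lower in every KO DM library than in any WT DM library, with a response to DM that was -2.73 in KO minus WT on the log2 scale. That difference was not tested, since the medium contrasts chose the gene.

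Several genes of the lists differed between genotypes in their response to DM by the interaction term of the edgeR fit (KO minus WT, log2). Those given first are a selection of the list genes called. The response was more negative in KO for Sprr2g (-6.50, from 0 counts in KO DM, so that the size depends on the prior count), Serpinb9b (-1.21), Pkp1 (-1.06) and Eno1 (-0.38). It was more positive in KO for Serpinb1b (1.66), Serpine2 (1.15), Osmr (0.85), Serpinb1a (0.84), Fosl2 (0.59), Stat3 (0.56), Lrp1 (0.53), Il6st (0.47) and Junb (0.38). Called but outside that selection were, among others, Plau (-0.68) and Plaur (-0.57), more negative in KO. Tgm5 (2.42), Jdp2 (0.52) and Socs2 (0.51) were likewise called and more positive in KO. By this term 5.25% of all genes were called lower and 3.61% higher.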

How the results depend on the processing

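The falls of Prl2c3, Sprr1a and Serpinb2 in KO DM against WT DM and the rise of Serpinb2 in KO GM against WT GM kept their direction and call under all 24 alternatives. The Prl2c2 change in DM ran from -2.31 to -1.80 when 1 library was left out. In GM Prl2c2, near 0, turned to -0.02 with total counts alone and -0.33 with Prl2c genes summed, and ran from -0.22 to 0.26 with 1 library left out. Sprr1a in GM ran from -0.64 to -0.21 with 1 library left out and was -0.53 without both GM replicate 3 libraries. With a replicate block, although the numbers were not shown to pair the samples, Prl2c3 in GM was -0.63 and was called (adjusted p = 6.06e-06). Genes called higher in KO GM against WT GM were 1330, and 864 in a fit of only those groups. Interaction calls were 478 higher and 696 lower, 293 to 969 and 400 to 951 with 1 library left out, and, with both GM replicate 3 libraries left out, 1373 and 1336. Why these values moved was not tested. The ratio of Prl2c3 to Prl2c2 between genotypes stayed between -0.91 and -0.79 in the alternatives run. Sprr1a in KO DM rests on 6 counts, which limits the size of its fold but not its direction.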
